A study of Mus musculus with 7 samples.

Results

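The 10 genes at the head of the insulin and IGF (insulin-like growth factor) pathway were followed here in mouse quadriceps, the large thigh muscle. They were the rows of the deposited count table whose gene symbol was Igf1 or Igf2 (ligands), Igf1r, Igf2r or Insr (receptors), Irs1, Irs2 or Grb10 (receptor substrates and an adaptor), or Pik3r1 or Pik3ca (subunits of phosphoinositide 3-kinase, PI3K). All 10 members were found among the 53819 genes of the table, and all 10 passed the filter on low counts that left 14935 genes for testing. The 7 libraries were made from wild type males of the inbred strain C57BL/6J. At 8 weeks of age these received 200 µl of vector through a tail vein, and muscle was taken 54 days later. AAV8 is a serotype of adeno-associated virus with a strong preference for hepatocytes. The control group, AAV8-Null, received AAV8-Alb-Null (4 libraries), and the other group, AAV8-IGFBP1, received AAV8-Alb-IGFBP1 (3 libraries). The muscle is therefore read at a distance from the organ the vector is aimed at, and both groups carry a vector. The labels do not say whether each library came from its own mouse, so the spread behind each p-value is that between samples and may be technical.

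IGF1 and IGF2 are secreted peptides related to insulin, and IGFBP1, released chiefly from hepatocytes, binds them in blood. The receptors encoded by Igf1r and Insr are tyrosine kinases that phosphorylate the IRS docking proteins, to which the regulatory subunit of PI3K then binds, while the Igf2r product clears IGF2 without kinase activity. In muscle the pathway is known for driving growth, protein synthesis and glucose uptake.

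The libraries held 38947453 to 51210360 counts each. Levels are given as CPM, the count relative to the TMM-scaled library total, on the scale of the cpm function of edgeR. Markers of muscle fibres were abundant (the 5 markers summed to 57422 to 66152 CPM), whereas 5 hepatocyte markers summed to 0.243 to 2.33 CPM. Along principal component 1 (27.2% of variance) the AAV8-Null libraries scored -25.7 to -11.9 and the AAV8-IGFBP1 libraries 8.24 to 45.2, without overlap. AAV8-IGFBP1 replicate 2 stood apart at 45.2, where AAV8-IGFBP1 replicates 1 and 3 scored 12.6 and 8.24. Igfbp1 itself had 0 counts in AAV8-Null replicates 1, 2 and 3, which allows up to 0.0596, 0.0580 and 0.0786 CPM from counting error alone. It had 0.195 CPM in AAV8-Null replicate 4 and 4.39, 34.5 and 3.14 CPM in AAV8-IGFBP1 replicates 1, 2 and 3 (edgeR adjusted p = 0.0691 for a log2 fold change of 8.21, SE 1.54). The groups did not overlap, in the direction of the labels, but the test over all genes was missed. The labels do not give the species of the IGFBP1 insert, so how much of these counts comes from the vector cannot be told.

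Across the table edgeR's quasi-likelihood test called 87 genes at an adjusted p under 0.05, or 0.583% of those tested, and 0 of the 10 members were among them. DESeq2, which called 2.85% of genes, called 2 members, Igf1 and Pik3r1, both higher in AAV8-IGFBP1 (1.37% of genes were called in that direction). limma-voom, which called 0.415% of genes, called 0. Before adjustment 5 members had an edgeR p under 0.05, as had 12.9% of all genes. The 2 groups did not overlap for 4 members (Igf1, Pik3r1 and Pik3ca higher in AAV8-IGFBP1, Irs2 lower), against 12.3% of all genes (6.33% higher and 6.01% lower). The members' median log2 fold change was 0.16, with 6 above 0 and 4 below. Of all genes 49.9% were above 0, with a median of -0.0010. As the members were chosen with results of these data known, these counts describe them and do not set them apart.

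**Figure D1:**
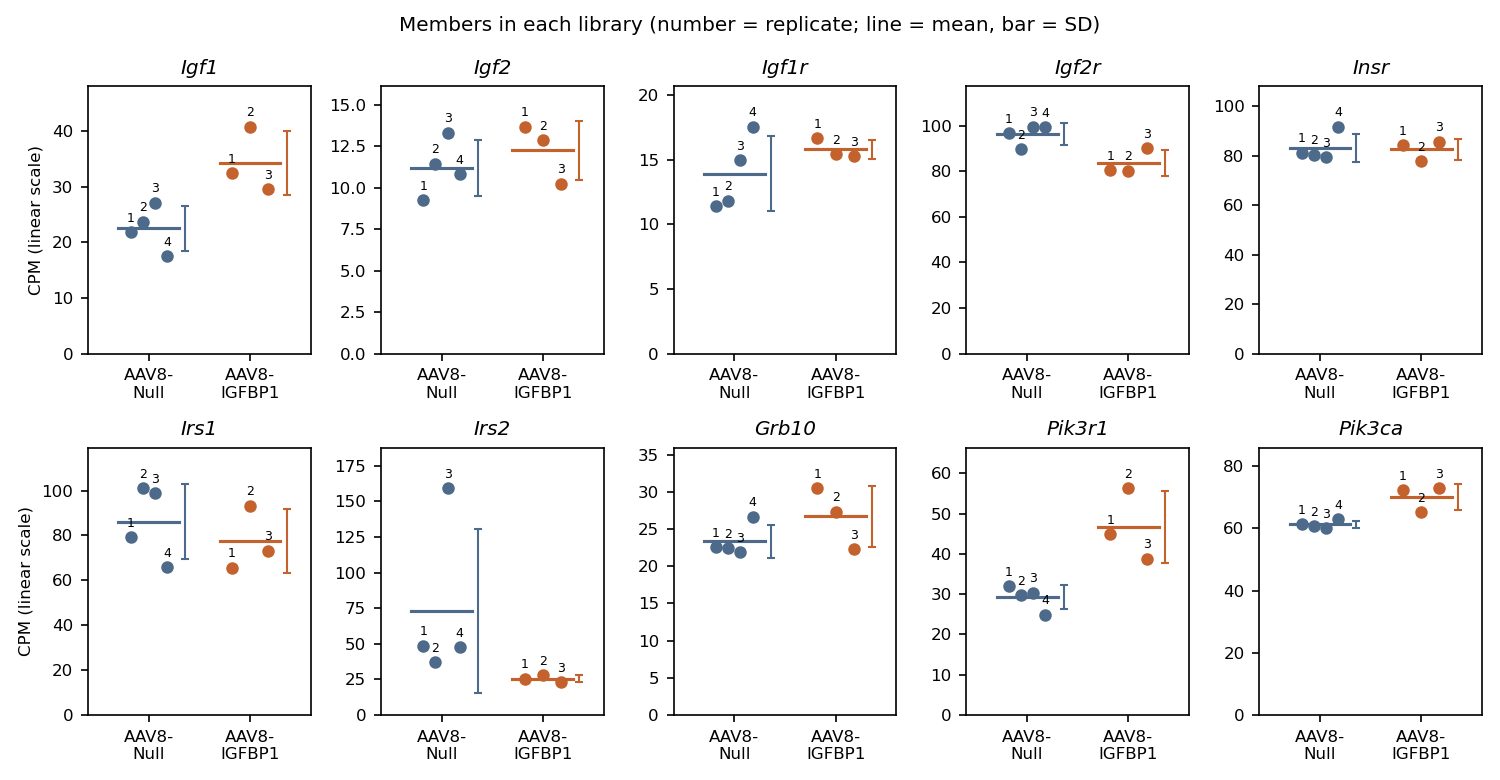
Level of each member in every library in CPM (linear scale from 0, a panel per gene). Points are libraries numbered by replicate, lines are group means and bars are SDs (n = 4 AAV8-Null, n = 3 AAV8-IGFBP1). Igf1 and Pik3r1 lie higher in all AAV8-IGFBP1 libraries, Irs2 lies lower in all of them, and AAV8-Null replicate 3 stands alone at 159 CPM for Irs2.

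The regulatory sequence just upstream of Irs1 and Irs2, which encode closely related docking proteins, is shown as a description. Its part in the values of any library was not tested. Capitals mark the E-box CACGTG, a motif that reads the same on both strands and is bound by transcription factors of the basic helix-loop-helix class.
Irs1, upstream 250 bases, chr1:82291440-82291689, minus strand, GRCm38.p6: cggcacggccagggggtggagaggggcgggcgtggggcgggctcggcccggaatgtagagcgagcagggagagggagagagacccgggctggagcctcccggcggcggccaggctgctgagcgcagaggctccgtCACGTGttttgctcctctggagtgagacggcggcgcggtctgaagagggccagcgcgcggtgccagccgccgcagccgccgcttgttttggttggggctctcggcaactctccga
Irs2, upstream 250 bases, chr8:11008930-11009179, minus strand, GRCm38.p6: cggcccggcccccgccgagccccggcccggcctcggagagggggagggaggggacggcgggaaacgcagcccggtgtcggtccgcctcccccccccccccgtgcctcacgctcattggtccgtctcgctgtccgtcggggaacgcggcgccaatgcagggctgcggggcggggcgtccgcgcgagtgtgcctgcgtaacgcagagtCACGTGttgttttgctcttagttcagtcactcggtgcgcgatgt
The E-box began 115 bases before the annotated start in Irs1 and 44 bases before it in Irs2. It was also found, at 2 places, upstream of Igf2r. Among 32851 annotated starts in the RefSeq promoter table of GRCm38.p6, 6.02% held this motif in the same 250 bases, and 3 of the 14 starts of the 9 members with an entry did. Irs1 and Irs2 are also rich in G and C there (72.4% and 72.8%, against a median of 52.4% over all starts). This was not particular to them, since the starts of the other members ranged from 42.4% (a start of Pik3r1) to 81.2% (a start of Grb10). The motifs GTAAACA (FoxO, in 3.17% of all starts), TTCNNNGAA (STAT, 7.02%) and TTATGNAA (D-box, 3.07%), each read on both strands, were found in 0 of the 14 member windows. A match is only a run of letters, and its absence from 250 bases says nothing of the factor.

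Of the ligands, Igf1 had the higher values in AAV8-IGFBP1. Igf1, made in liver for the circulation and in muscle for local use, lay at 21.9, 23.8, 27.2 and 17.5 CPM in AAV8-Null replicates 1 to 4. In AAV8-IGFBP1 replicates 1 to 3 it lay at 32.4, 40.8 and 29.6 CPM. The lowest AAV8-IGFBP1 library was thus above the highest AAV8-Null library, and replicate 2 was the highest of all. The means were 22.6 ± 4.03 and 34.3 ± 5.82 CPM (SD, n = 4 and 3), a ratio of 1.52. The log2 fold change was 0.60 (SE 0.16, 95% interval 0.24 to 0.97), with an edgeR adjusted p of 0.177, short of the threshold. The adjusted p was 0.00870 in DESeq2 and up to 0.384 in the other fits. Without AAV8-IGFBP1 replicate 2 the log2 fold change was 0.46 (edgeR adjusted p = 0.349).

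Igf2, the fetal growth factor of the pair, lay at 9.24, 11.4, 13.3 and 10.8 CPM in AAV8-Null and at 13.7, 12.8 and 10.2 CPM in AAV8-IGFBP1. The groups overlapped (log2 fold change 0.13, 95% interval -0.18 to 0.44, edgeR adjusted p = 0.748). Igf2 and H19 are imprinted neighbours that share enhancers, with Igf2 read from the paternal and H19 from the maternal copy. H19, a long noncoding RNA gene, lay at 436, 378, 413 and 374 CPM in AAV8-Null and at 291, 222 and 224 CPM in AAV8-IGFBP1. H19 fell by 0.71 on the log2 scale (SE 0.11, edgeR adjusted p = 0.0307). H19 no longer passed without AAV8-Null replicate 1 (edgeR adjusted p = 0.0895), 2 (0.0516) or 3 (0.0695) or AAV8-IGFBP1 replicate 2 (0.0830) or 3 (0.0762). Whether the change in H19 differed from that in Igf2 was not tested. The other genes that lie beside imprinted members were Airn, an antisense RNA gene at Igf2r (log2 fold change -0.36, edgeR adjusted p = 0.379), and Ddc beside Grb10, which did not pass the filter. Reads of Airn and Igf2r may not be told apart, since the strand setting is not given in the sources used here.

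None of the 3 receptor genes passed the test of edgeR or DESeq2, and 1 of them, Igf2r, had an unadjusted edgeR p under 0.05. Igf2r lay at 96.7, 89.6, 99.5 and 99.4 CPM in AAV8-Null and at 80.4, 80.3 and 90.0 CPM in AAV8-IGFBP1. AAV8-IGFBP1 replicate 3 reached just above AAV8-Null replicate 2, so the groups overlapped (log2 fold change -0.20, SE 0.07, 95% interval -0.35 to -0.056, edgeR adjusted p = 0.246). Igf1r, the receptor gene through which IGF1 mainly acts, lay at 11.4, 11.8, 14.98 and 17.6 CPM in AAV8-Null and at 16.7, 15.4 and 15.3 CPM in AAV8-IGFBP1. The AAV8-IGFBP1 libraries were close together and inside the range of the AAV8-Null libraries, which spread more (coefficient of variation 4.85% against 20.8%; log2 fold change 0.19, 95% interval -0.14 to 0.52, edgeR adjusted p = 0.650). Insr, the insulin receptor gene, lay at 81.2, 80.4, 79.5 and 91.7 CPM in AAV8-Null and at 84.3, 77.8 and 85.7 CPM in AAV8-IGFBP1. Its log2 fold change was -0.011 (95% interval -0.17 to 0.14, edgeR adjusted p = 0.968), the smallest in size of the 10 members, and its sign turned in 5 of 19 other fits.

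Among the substrates Irs2 was lower in AAV8-IGFBP1 without overlap and Irs1 and Grb10 overlapped. Irs2, the docking protein gene whose transcript is known to respond to feeding and fasting, lay at 48.8, 37.0, 159 and 47.6 CPM in AAV8-Null replicates 1 to 4 and at 25.6, 27.9 and 22.99 CPM in AAV8-IGFBP1. Every AAV8-IGFBP1 library was below every AAV8-Null library, and AAV8-Null replicate 3 was far above all others. The coefficient of variation was 78.8% in AAV8-Null (14.6% without replicate 3) and 9.63% in AAV8-IGFBP1. The log2 fold change was -1.52 (SE 0.60, 95% interval -3.02 to -0.017, edgeR adjusted p = 0.386). Without AAV8-Null replicate 3 it was -0.80, smaller in size by more than 1.5 times, and the edgeR adjusted p was 0.0505. Both fits missed the threshold, as did DESeq2 with all libraries (adjusted p = 0.169).

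Irs1, the other main docking protein gene of muscle, lay at 79.2, 101, 98.8 and 65.9 CPM in AAV8-Null and at 65.6, 93.3 and 73.3 CPM in AAV8-IGFBP1. The groups overlapped over almost their whole range (log2 fold change -0.16, 95% interval -0.58 to 0.27, edgeR adjusted p = 0.780). AAV8-Null replicate 3, which stood apart for Irs2, was level with AAV8-Null replicate 2 for Irs1. Grb10, an imprinted adaptor gene whose product binds the receptors and dampens signalling, lay at 22.6, 22.4, 21.8 and 26.7 CPM in AAV8-Null and at 30.5, 27.3 and 22.3 CPM in AAV8-IGFBP1. Its groups overlapped as well (log2 fold change 0.19, 95% interval -0.060 to 0.44, edgeR adjusted p = 0.523).

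Both PI3K subunit genes lay higher in AAV8-IGFBP1 without overlap. Pik3r1, which encodes the regulatory subunit p85 alpha and its shorter forms, lay at 31.9, 29.8, 30.4 and 24.95 CPM in AAV8-Null and at 44.9, 56.3 and 38.8 CPM in AAV8-IGFBP1. As for Igf1, AAV8-IGFBP1 replicate 2 was the highest library and AAV8-Null replicate 4 the lowest. The means were 29.3 ± 3.02 and 46.7 ± 8.86 CPM (SD, n = 4 and 3), a ratio of 1.595. The log2 fold change was 0.67 (SE 0.13, 95% interval 0.38 to 0.97) with an edgeR adjusted p of 0.0737, the lowest of the members but short of the threshold. By DESeq2 the adjusted p was 0.000140. Without AAV8-IGFBP1 replicate 3 the gene passed edgeR's test (log2 fold change 0.79, adjusted p = 0.0435), without replicate 2 the log2 fold change was 0.52 (0.128), and the highest adjusted p over all fits was 0.201. The counts are per gene, so the forms of Pik3r1 cannot be told apart.

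Pik3ca, the gene of the catalytic subunit p110 alpha, lay at 61.4, 60.7, 60.0 and 62.9 CPM in AAV8-Null and at 72.2, 65.2 and 72.9 CPM in AAV8-IGFBP1. It had the tightest control group of the members, with a coefficient of variation of 2.03%. All 3 AAV8-IGFBP1 libraries lay above it (log2 fold change 0.19, SE 0.06, 95% interval 0.063 to 0.33, edgeR adjusted p = 0.209). The ratio of means was 1.14.

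**Figure D2:**
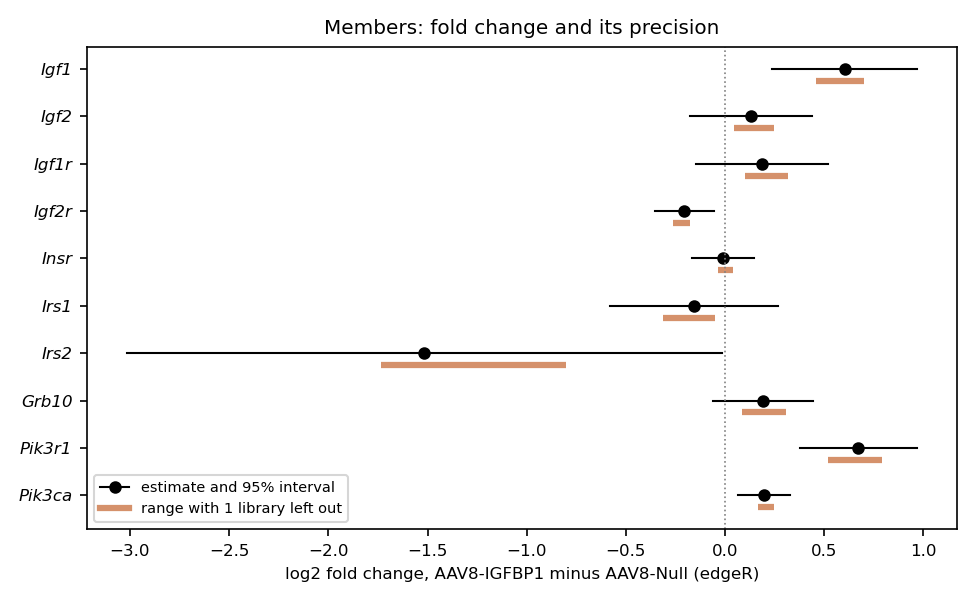
Log2 fold change of each member, AAV8-IGFBP1 minus AAV8-Null, from edgeR. Black points and lines are estimates with approximate 95% intervals, and orange bars are the range when each of the 7 libraries is left out in turn. Irs2 has the widest interval (-3.02 to -0.017), and its range stops at -0.80 without AAV8-Null replicate 3.

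Scaled by length, the members spanned an order of magnitude, and the ranges of many neighbours in this order overlapped. Levels per kb of exon (the merged exons of GENCODE M21, in a build other than that of the counts, so lengths are approximate) were highest for Igf2r, the receptor that clears IGF2, at 10.3 ± 0.4998 CPM per kb in AAV8-Null and 8.98 ± 0.601 in AAV8-IGFBP1 (SD, n = 4 and 3, here and below), by the mean over all 7 libraries. In AAV8-Null alone the mean of Irs2 was above it, at 11.6 ± 9.12 CPM per kb, with AAV8-Null replicate 3 at 25.2 and the others at 5.85 to 7.72. Igf2r was above Pik3ca in all 7 libraries without overlap. Irs1 and Irs2 had no fixed place beside them, since Igf2r was above Irs1 in 4 of 7 libraries, Irs1 above Irs2 in 5 and Irs2 above Pik3ca in 3. Pik3ca was above Insr in all 7 libraries, although the ranges of the pair overlapped. Insr was then above Pik3r1 in all 7 without overlap, and Pik3r1 above Igf1 in all 7 with overlapping ranges. Below these lay Igf1 and Grb10, which changed places between libraries, then Igf2 at 1.96 ± 0.294 CPM per kb in AAV8-Null and 2.14 ± 0.313 in AAV8-IGFBP1, and last Igf1r. Igf1r was the lowest member in every library, at 0.830 ± 0.172 CPM per kb in AAV8-Null and 0.941 ± 0.0456 in AAV8-IGFBP1. Irs2 took places 1 to 4 in AAV8-Null and place 6 in all 3 AAV8-IGFBP1 libraries, and Pik3r1 took places 6 and 7 in AAV8-Null and place 5 in AAV8-IGFBP1. With the longest transcript as the length, Insr was above Pik3ca (8.89 against 6.87 CPM per kb in AAV8-Null and 8.83 against 7.86 in AAV8-IGFBP1), so this place rests on the length used. Grb10 was then above Pik3r1 in AAV8-Null (4.62 against 4.11) and below it in AAV8-IGFBP1 (5.27 against 6.56). The mean of Grb10 was then also above that of Igf1 in AAV8-Null (4.62 against 3.20) and in AAV8-IGFBP1 (5.27 against 4.86).

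**Figure D3:**
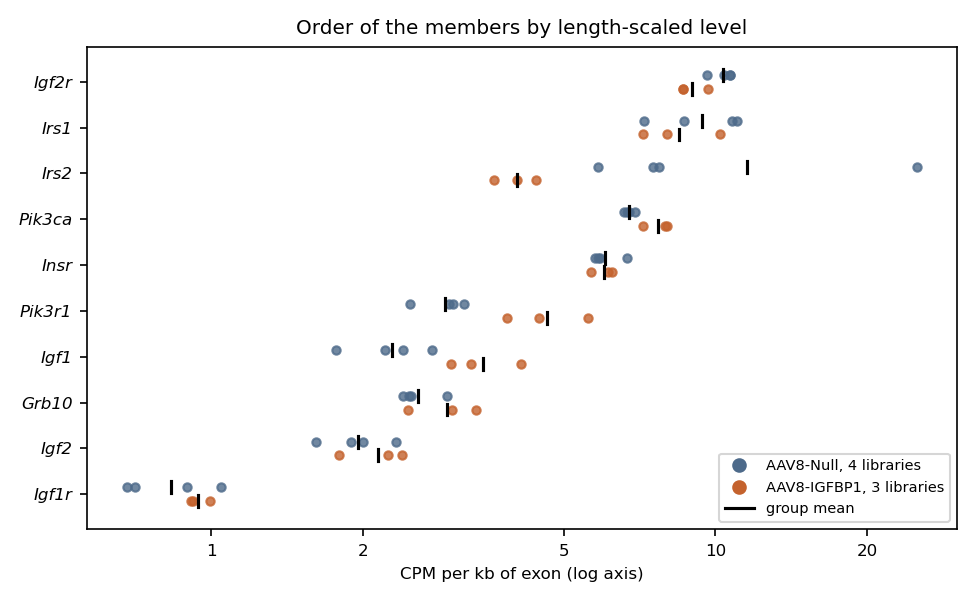
Members ordered by level in CPM per kb of exon (log axis). Points are libraries, 4 of AAV8-Null in blue and 3 of AAV8-IGFBP1 in orange, and black ticks are group means. Igf2r and Irs1 lie near the top in both groups, Igf1r at the bottom near 1, and Irs2 moves most between the groups.

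Ratios of paired members within a library do not depend on how libraries are scaled. The 4 pairs were compared by exact permutation over all 35 splits (two-sided, smallest p 0.0286), with Benjamini-Hochberg adjustment over the 4. The log2 ratio of Pik3r1 to Pik3ca was -1.09, -1.18, -1.13 and -1.48 in AAV8-Null and -0.83, -0.36 and -1.06 in AAV8-IGFBP1. It was higher in every AAV8-IGFBP1 library, by 0.47 on average (exact permutation p = 0.0286, adjusted 0.114), although replicate 3 exceeded the highest AAV8-Null library only slightly. Without AAV8-IGFBP1 replicate 2 the difference was 0.28, smaller by over 1.5 times. The log2 ratio of Igf1 to Igf2 was 0.45, 0.26, 0.24 and -0.10 in AAV8-Null and 0.46, 0.88 and 0.74 in AAV8-IGFBP1, a difference of 0.48 (exact permutation p = 0.0571, adjusted 0.114). Here too the groups did not overlap, by a margin smaller than the spread within either group.

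The log2 ratio of Irs2 to Irs1 was -0.17, -0.92, 1.22 and 0.06 in AAV8-Null and -0.83, -1.21 and -1.14 in AAV8-IGFBP1. It differed by -1.11 (exact permutation p = 0.0857, adjusted 0.114), and by -0.72 without AAV8-Null replicate 3, a change of over 1.5 times. AAV8-Null replicate 2 lay within the AAV8-IGFBP1 range, so the separation seen for Irs2 alone was not kept by the ratio. The log2 ratio of Igf1r to Insr was -3.12, -3.06, -2.69 and -2.67 in AAV8-Null and -2.62, -2.62 and -2.78 in AAV8-IGFBP1, which overlapped (difference 0.21, exact permutation p = 0.286, adjusted 0.286). None of the 4 ratios passed after adjustment.

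**Figure D4:**
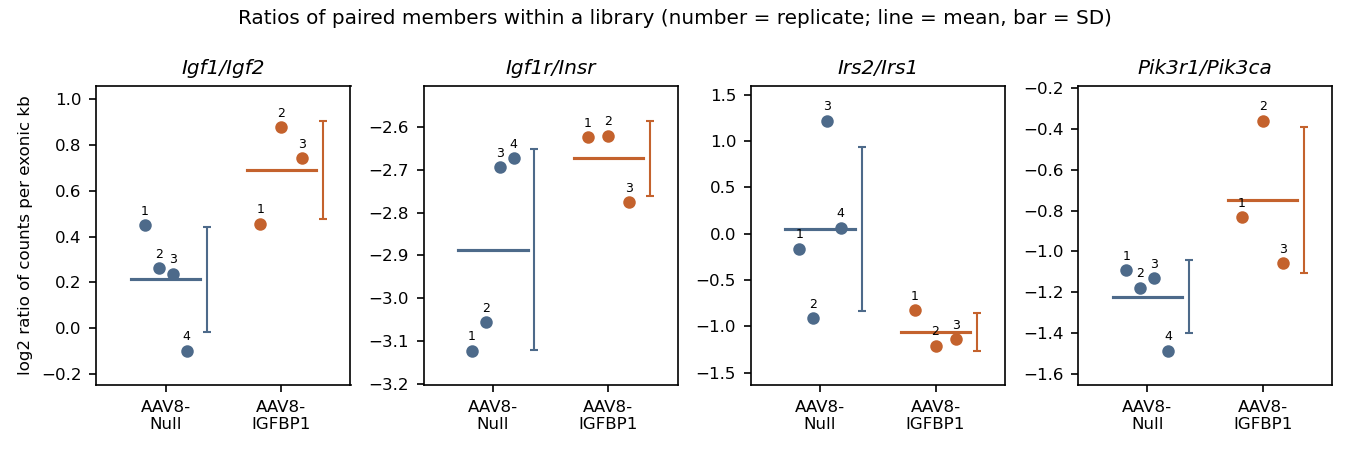
Log2 ratio of counts per exonic kb for 4 pairs of members in every library. Points are libraries numbered by replicate, lines are means and bars are SDs (n = 4 and 3), and the axes do not start at 0. Pik3r1/Pik3ca and Igf1/Igf2 do not overlap between the groups, and AAV8-Null replicate 3 stands apart for Irs2/Irs1 at 1.22.

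Bulk RNA holds all cells of the muscle, and fewer cells of a type cannot be told apart from less RNA per cell. AAV8-IGFBP1 replicate 2, the highest library for Igf1 and Pik3r1, also had the most adipocyte RNA. The adipocyte markers had a mean centred log2 level of 1.92 in it against -1.10 to 0.26 in the other 6 libraries, and summed to 107 to 241 CPM in AAV8-Null and 148 to 821 CPM in AAV8-IGFBP1. All 6 adipocyte markers were detected and 0 of 6 passed edgeR's test (0 before adjustment and 0 by DESeq2). The share of counts on Rn18s, a ribosomal RNA gene, was also highest in AAV8-IGFBP1 replicate 2, at 2.29%, and was 0.593% to 1.32% in AAV8-Null and 1.09% to 2.29% in AAV8-IGFBP1. Macrophages are a known source of Igf1 in muscle. Their 7 markers summed to 45.0 to 68.9 CPM in AAV8-Null and 33.7 to 61.1 CPM in AAV8-IGFBP1, and 0 of 7 passed (0 before adjustment and 0 by DESeq2). Slow fibre markers summed to 567 to 1813 CPM in AAV8-Null and 243 to 800.2 CPM in AAV8-IGFBP1, with 0 of 7 past edgeR's test, 4 before adjustment and 1 by DESeq2. AAV8-Null replicate 3, the high library for Irs2, had the most tenocyte RNA, a sum of 352 CPM over 6 markers. The sum was 161 to 191 CPM in AAV8-Null replicates 1, 2 and 4 and 76.5 to 289 CPM in AAV8-IGFBP1. Of the tenocyte markers 0 of 6 passed (0 before adjustment and 0 by DESeq2). AAV8-Null replicate 3 also had the highest level of smooth muscle markers, 0.84 against -0.78 to 0.46. Of these 4 markers 1 (Tagln) passed edgeR's test, 4 had an unadjusted edgeR p under 0.05 and DESeq2 called 3. All 4 were lower in AAV8-IGFBP1, with a median log2 fold change of -1.10. No marker of these 5 lists was at 0 in all libraries, and the part of these markers and of Rn18s in the members' values was not tested.

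The genes whose pattern over the 7 libraries was most like that of a member were found among 10237 genes, by the root mean square difference of standardised log2 CPM. For Igf1 these were Sec61b (0.135 SD), which encodes a subunit of the endoplasmic reticulum translocon, Taf15 (0.167) and Unc119 (0.209). Pik3r1 lay at 0.304 from Igf1. For Pik3r1 they were Deptor (0.145), which encodes an inhibitor of the kinase mTOR, Ralgds (0.209) and Cradd (0.213), and of these Ralgds passed edgeR's test (log2 fold change 0.61, adjusted p = 0.0333). Deptor lay at 118, 119, 115 and 101 CPM in AAV8-Null and at 139, 155 and 128 CPM in AAV8-IGFBP1 (edgeR adjusted p = 0.156). For Irs2 they were the transcription factor gene Tbx3 (0.130), Adam15 (0.142) and Ube2g2 (0.157). Tbx3 was at 10.3 CPM in AAV8-Null replicate 3, while AAV8-Null replicates 1, 2 and 4 had 5.41 to 6.26 CPM and AAV8-IGFBP1 3.96 to 4.65 CPM. Tbx3 was picked for its likeness to Irs2, so the shared high library follows from the search. The matches are the closest of all genes searched and are given as a description.

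Further along the pathway, 40 of 45 other insulin and IGF signalling genes were tested. Of these 0 passed edgeR's test, 8 had an unadjusted p under 0.05, DESeq2 called 2 and limma-voom 0. Over all genes these shares were 0.583%, 12.9%, 2.85% and 0.415%. The 18 above 0 and 22 below 0 gave a median log2 fold change of -0.02. The genes with the lowest p were Pik3cd, a further catalytic PI3K subunit gene (13.6 ± 0.464 against 17.4 ± 1.86 CPM, log2 fold change 0.36, edgeR adjusted p = 0.120), Akt1 (46.7 ± 2.99 against 54.96 ± 1.87 CPM, 0.24, 0.171) and the docking protein gene Gab1 (18.2 ± 1.56 against 22.4 ± 1.61 CPM, 0.30, 0.181). In each of these 3, taken for their low p, every AAV8-IGFBP1 library lay above every AAV8-Null library. Over the 40 genes the groups did not overlap for 4 higher and 3 lower in AAV8-IGFBP1, against 12.3% of all genes. DESeq2 called Pik3cd (adjusted p = 0.0307) and, named here after its value was seen, the phosphatase gene Ptprf (log2 fold change -0.85, DESeq2 adjusted p = 0.0391). Ins1 and Irs4 were at 0 counts in all 7 libraries.

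Outside the cell, Igfbp5 and Igfals rose among the 11 tested IGF binding protein and protease genes. The other 9 did not pass edgeR's test, while DESeq2 called 4 of the 11. Of all genes edgeR called 0.583% and DESeq2 2.85%. Igfbp5, a binding protein gene of muscle, lay at 749 to 1012 CPM in AAV8-Null and 1363 to 1483 CPM in AAV8-IGFBP1 (edgeR adjusted p = 0.0295 for a log2 fold change of 0.74, SE 0.11). Igfals, whose product joins the circulating IGF complex, lay at 3.20 to 3.89 and 6.86 to 9.99 CPM (1.24, SE 0.14, 0.00985). Igfbp5 lost the call without AAV8-Null replicate 1 (edgeR adjusted p = 0.0840) or AAV8-IGFBP1 replicate 1 (0.0863), 2 (0.0830) or 3 (0.0728), and Igfals without AAV8-Null replicate 1 (0.0526). DESeq2 also called Igfbp1 (adjusted p = 0.0142) and Pappa, which encodes a metalloproteinase that frees IGFs from their binding proteins. Pappa lay at 3.91 to 6.495 CPM in AAV8-Null and 8.51 to 14.99 CPM in AAV8-IGFBP1 (log2 fold change 1.26, edgeR adjusted p = 0.0644, DESeq2 adjusted p = 2.9e-06), and is named after its value was seen. The median log2 fold change over the 11 genes, Igfbp1 included, was 0.65.

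Upstream of Igf1, of 7 growth hormone and STAT5 genes 1 rose and 1 fell (of all genes edgeR called 0.388% higher and 0.194% lower). The median log2 fold change of the 7 was 0.12. Socs2, the feedback inhibitor of growth hormone signalling, lay at 6.14 to 9.66 CPM in AAV8-Null and 26.1 to 31.6 CPM in AAV8-IGFBP1 (edgeR adjusted p = 0.00679 for a log2 fold change of 1.83, SE 0.16). The transcriptional repressor gene Bcl6 lay at 107 to 146 and 60.6 to 65.03 CPM (-0.99, SE 0.10, 0.00679).

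FoxO factors are transcription factors that insulin signalling keeps inactive. Of 16 FoxO factors and known FoxO targets, 0 passed edgeR's test and 5 had an unadjusted p under 0.05 (12.9% of all genes). DESeq2 called 2 of them (Fbxo32 and Eif4ebp1), and 2.85% of all genes. The ubiquitin ligase gene Fbxo32 was at 524 ± 64.2 and 351 ± 34.4 CPM (log2 fold change -0.58, edgeR adjusted p = 0.0605), Eif4ebp1 at 23.3 ± 1.84 and 30.5 ± 1.94 CPM (0.39, 0.0737) and Sesn1 at 15.8 ± 2.81 and 22.1 ± 2.99 CPM (0.48, 0.208). The list's median was 0.14. Of 12 immediate early genes, which respond fast to stimuli, 0 passed, 1 had an unadjusted p under 0.05 and DESeq2 called 0, with 11 below 0 and a median of -0.73. Their mean centred level was 0.41, 1.20, 0.44 and -0.48 in AAV8-Null and -1.10, -0.60 and 0.14 in AAV8-IGFBP1. AAV8-Null replicate 2 was the highest library for the list and for 8 of its 12 genes. AAV8-Null replicate 3, the high library for Irs2, was the highest for the other 3 that peaked in AAV8-Null, named here after their values were seen: Nr4a3 (90.8 CPM, against 5.56 to 13.4 in the remaining AAV8-Null libraries), Nr4a1 (285 against 129 to 152) and Jun (140.4 against 80.3 to 107). The lowest p values were those of Atf3 (edgeR adjusted p = 0.247), Nr4a3 (0.396) and Egr2 (0.414).

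**Figure D5:**
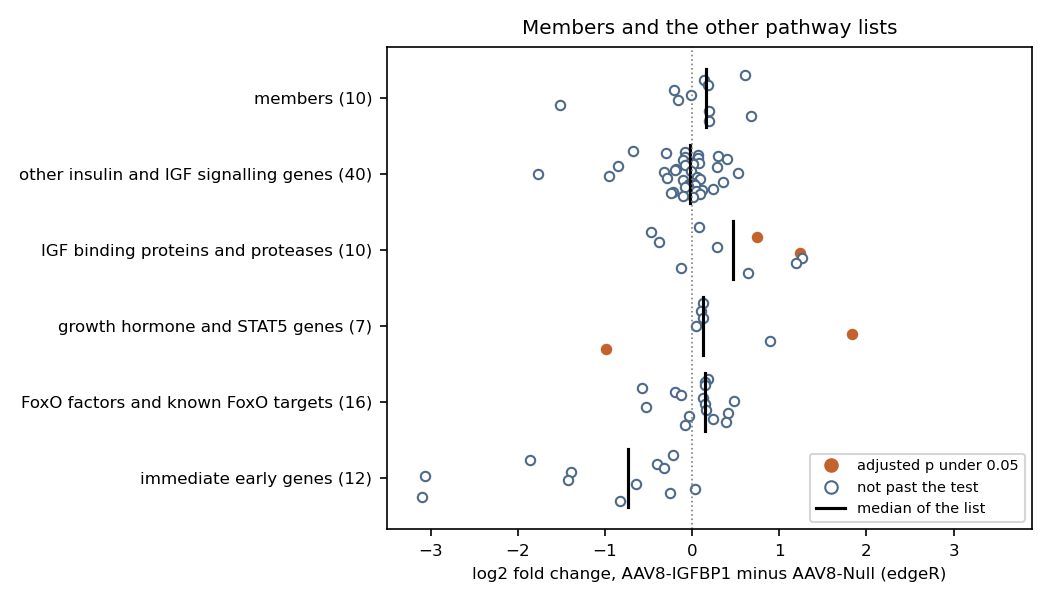
Log2 fold change of the members and of the tested genes of 5 pathway lists, each point a gene, with the number of genes in brackets; Igfbp1 at 8.21 is left out. Filled points have an edgeR adjusted p under 0.05 and black lines are medians of the genes plotted. Filled points appear only for Igfbp5, Igfals, Socs2 and Bcl6.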

How the data were processed

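RNA of mouse quadriceps was measured in 7 libraries, grouped by their titles. Estimated counts for each gene symbol were deposited by the authors in 1 table. Salmon 1.10.1, STAR 2.7.9a, Trim Galore 0.6.7, cutadapt 3.4, R 4.2.2 and the build GRCm39 are named, without their roles, per the submitters' processing notes. The annotation release and strand setting are not given in the sources used here. In each library 5617 to 6277 values were not whole (tolerance 1e-06), and all were rounded before testing.

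The test was edgeR 4.0.16 in R 4.3.3: filterByExpr (minimum count 10, total 15), TMM scaling, glmQLFit (robust, without the older method) and glmQLFTest on group alone over all 7 libraries, with Benjamini-Hochberg adjustment over 14935 genes and a threshold of 0.05. Standard errors and 95% intervals are approximate, from the F statistic. Alternatives used DESeq2 1.42.0, limma 3.58.1, other scalings, filters and blocks, and each library left out. Ratios had 0.5 counts added and were tested by exact permutation. Counting limits use 3 counts, and cover only counting error, as PCR copies of a molecule were not removed by identifiers. No pair of libraries in a group differed by less than sampling noise (chi-square 20.4 to 54.6 times its degrees of freedom).

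The members and lists were chosen with earlier results of these data known. Named are Igfbp1, the members, the called genes of each pathway list or otherwise its 3 genes with the lowest p, the 3 genes most like Igf1, Irs2 and Pik3r1 (mean log2 CPM of at least 1), and genes a check turned on. Simulated counts for this comparison (5 sets, 200 changed genes each, median 14690 genes tested) were used to test the steps. Promoter sequences are from RefSeq, GRCm38.p6; protein sequences were not used here.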

Additional observations from a re-analysis of the deposited data

Results flagged for a closer look

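Of 35 groups of 4 AAV8-Null values looked at, 6 had 1 library far from the other 3 (gap over range above Dixon's critical value). For a single group chance gives about 1 in 20, but the groups share genes, so the 6 are not set against that share. For Irs2, AAV8-Null replicate 3 lay at 159 CPM and the others at 37.0 to 48.8 CPM. The mean centred level of the 10 members was 0.20 in the same library and -0.11 to -0.071 in the others. Irs2, at 1.93 in that library, is 1 of the 10, so this flag is not separate from that of Irs2. AAV8-Null replicate 4 lay at 91.7 CPM for Insr (others 79.5 to 81.2), at 26.7 CPM for Grb10 (others 21.8 to 22.6) and at 0.195 CPM for Igfbp1 (others at 0 counts). With the others at 0 counts, any count in replicate 4 would have been flagged for Igfbp1. The mean level of the IGF binding protein and protease genes was -0.67 in AAV8-Null replicate 1 and -0.38 to -0.34 in the others.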

How the results depend on the processing

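The count of 87 called genes was 434 with DESeq2, 157 without a count filter and 4 with the replicate block, and ranged from 14 to 79 with 1 library left out (14 with AAV8-Null replicate 1 left out, 44 with its replicate 3, and 27, 30 and 49 with AAV8-IGFBP1 replicates 1, 2 and 3). It was 27 without AAV8-Null replicate 3 and AAV8-IGFBP1 replicate 2 together, a fit chosen after seeing the data, as was the older quasi-likelihood method (83). Higher calls were 66.7% of all calls, 47.9% with DESeq2 and 56.1% without a count filter. The count of 0 called members was 2 with DESeq2 and ranged from 0 to 1 with 1 library left out, and that of the 0 other signalling genes was 2 with DESeq2. Of the members, 9 kept the sign of their log2 fold change in all 19 alternatives, and Insr turned to 3.34e-05 with limma quality weights, 0.038 with the replicate block and 0.0091 without both libraries named above, and ranged from -0.038 to 0.039 with 1 library left out. The cause of these shifts was not tested. Same-numbered libraries did not deviate together (correlations -0.0984, 0.0682 and -0.0574), so the numbers are not taken as pairs; with the replicate block 0 members were called, with Pik3r1 at 0.59 and Igf1 at 0.49. All 4 ratios kept their direction in their 9 alternatives, where 1 library left out allows no exact p under the threshold.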
